A study of Homo sapiens with 6 samples.

Results

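The 10 genes described here, BMP2, BMP4, TGFB2, TGFBR2, BAMBI, SMAD6, SMAD7, ID1, ID2 and ID3, encode ligands, a receptor, inhibitors and response factors of bone morphogenetic protein (BMP) and transforming growth factor beta (TGF-beta) signalling. They were taken by gene name from 58735 measured genes, with their levels in all groups already known, so their levels are given as descriptions with no test. The study asked what loss of keratin 17 (KRT17), an epithelial intermediate filament protein, does to gastric carcinoma cells. RNA was sequenced in 6 libraries, 2 from each of 3 groups, all labelled as NCI-N87, a gastric carcinoma cell line of human origin known for ERBB2 amplification. The groups were a KRT17 knockout named KO1, a KRT17 knockout named KO2, and wild type (WT). The labels do not say whether KO1 and KO2 are guides, pools or clones, nor whether replicates were separate cultures, so p-values measure the spread between libraries, which may be technical.

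BMP and TGF-beta ligands are secreted proteins that bring type I and type II receptor kinases together at the cell surface. The activated receptors phosphorylate SMAD proteins, SMAD1, SMAD5 and SMAD9 for most BMPs and SMAD2 and SMAD3 for TGF-betas, which join SMAD4 and act in the nucleus. ID1, ID2 and ID3 are classic BMP-induced genes, while SMAD6, SMAD7 and BAMBI are induced by the pathways and dampen them. In epithelial cells TGF-beta is known as an inducer of epithelial-mesenchymal transition, the loss of epithelial for mesenchymal features.

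The libraries held 17599759 to 22852340 reads, recovered from the deposited FPKM values (reads scaled by exon length and a number set per library, close to its depth). KRT17 averaged 2.35 ± 0.0823 FPKM in KO1, 10.9 ± 0.660 in KO2 and 746 ± 10.1 in WT (SD, n = 2 each). ERBB2 averaged 5.82 ± 0.360 FPKM in KO1 and 5.29 ± 0.0233 in KO2, against 1387 ± 46.4 in WT, so the knockout libraries did not have the ERBB2 level known for NCI-N87. KRT19, an epithelial keratin, had 10 reads over both KO1 libraries and 0 over both KO2 libraries, against 161100 over both WT libraries. Whether the knockout libraries come from the line their labels name was not tested, and KO1 and KO2 below mean the libraries so labelled. All 10 epithelial markers examined were called lower in the knockouts, with a summed level of 364 to 438 FPKM in knockout libraries and 3893 to 3996 FPKM in WT libraries, and ESRP1 had 0 reads in all 4 knockout libraries. Of these, the adhesion genes EPCAM and CDH1 averaged 2.91 and 0.155 FPKM in KO1, 3.07 and 0.494 FPKM in KO2, and 186 and 59.6 FPKM in WT. VIM, the mesenchymal filament vimentin, averaged 39.0 ± 0.796 FPKM in KO1, 40.9 ± 0.807 in KO2 and 0.216 ± 0.128 in WT. The 8 fibroblast markers summed to 35.7 to 42.3 FPKM in knockout libraries and 0.0646 to 0.0679 FPKM in WT libraries, nearly all of it LUM at 29.6 FPKM and DCN at 7.37 FPKM on average in the knockouts, against 0 and 0.00212 FPKM in WT. PDGFRB had 537 reads over the 4 knockout libraries and 6 in WT, COL3A1 had 184 and 2, and FAP had 151 and 3. PDGFRA had 0 reads in all 6 libraries, COL1A2 had 10 reads over the 4 knockout libraries and 0 in WT, and THY1 had 4 and 6. The 6 leukocyte and 5 endothelial markers summed to at most 2.19 FPKM in any library, and CD68, KDR and TEK had 0 reads in the knockouts. The endothelial cadherin gene CDH5 had 333 reads over the 4 knockout libraries and 3 over the WT libraries. In limma (Benjamini-Hochberg adjusted p below 0.05, 16046 genes tested), 80.6% of genes were called between the average of KO1 and KO2 and WT. The part of these whole-library differences in the values below was not tested. In bulk RNA, fewer cells of a type and less RNA per cell cannot be told apart.

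Levels of all 10 genes did not overlap between the 4 knockout libraries and the 2 WT libraries, 4 being higher and 6 lower in the knockouts. Of all genes tested, 79.9% did not overlap in the same way, and the genes were chosen on this contrast, so nothing is read from the count. The genes higher in the knockouts were BMP2, ID1, ID3 and SMAD6, and those lower were BMP4, TGFB2, TGFBR2, BAMBI, SMAD7 and ID2. All 10 passed the filter of 1 FPKM in at least 2 libraries, BMP4 through the WT libraries and BMP2, ID3 and SMAD6 through the knockout libraries. BMP2 reached 1 FPKM in only 1 WT library. Between KO2 and KO1, 8 of the 10 did not overlap, with BMP2 and ID2 higher and 6 lower in KO2, where 64.8% of all genes tested did not overlap. Differences from WT in KO1 and in KO2 share the WT libraries and are given side by side.

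**Figure D1:**
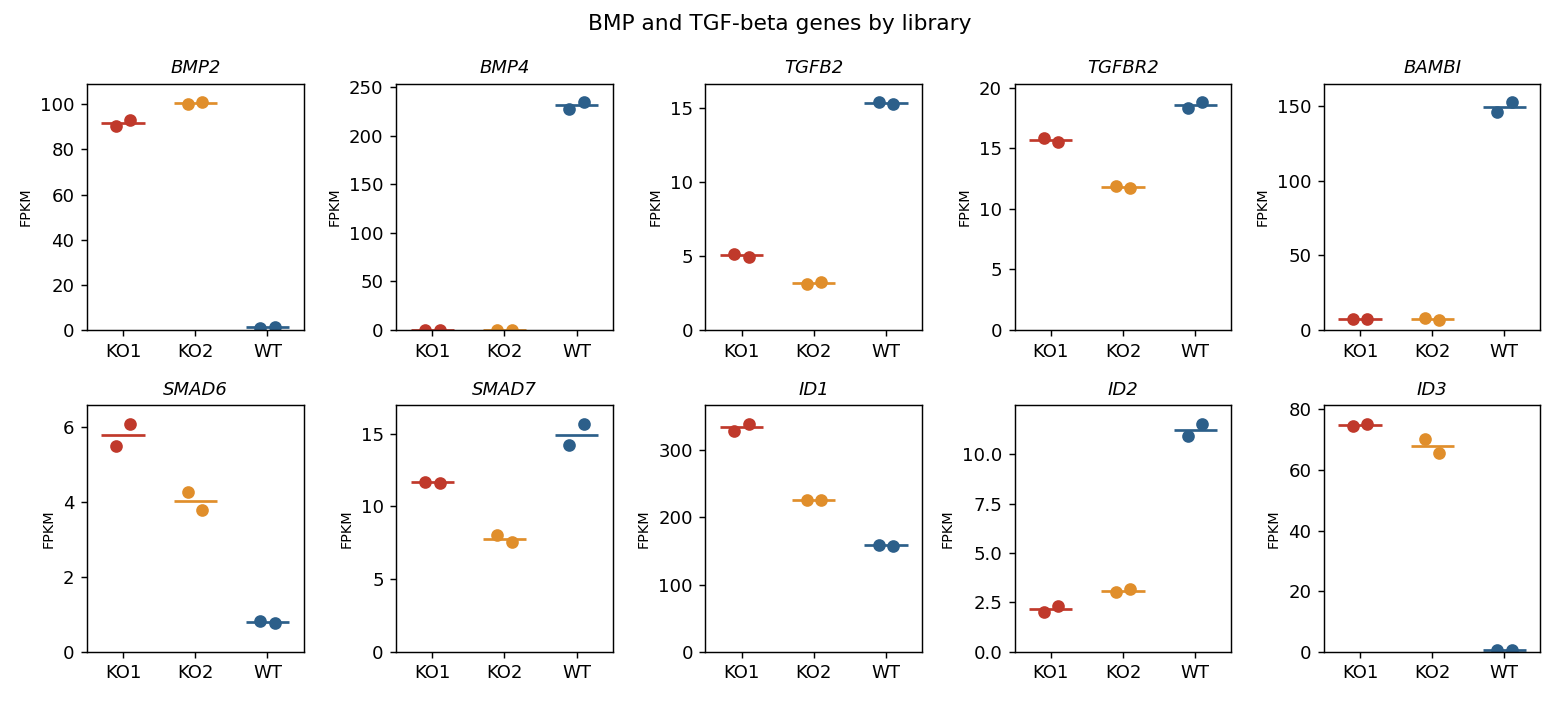
Each point is the FPKM value of one library and each bar the mean of its group, with KO1, KO2 and WT along the x axis and FPKM from 0 on the y axis of each panel. BMP4 lay at or below 0.0428 FPKM in the knockout libraries and at 228 and 235 FPKM in WT, while BMP2 lay between 90.4 and 101 FPKM in the knockouts and at 0.977 and 1.35 FPKM in WT.

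BMP2 and BMP4 are closely related secreted ligands of the BMP branch, and their levels went in opposite directions. BMP2 (ENSG00000125845, GRCh38 chr20:6767664-6780280) stood at 90.4 and 93.1 FPKM in KO1, 100.3 and 101 FPKM in KO2, and 0.977 and 1.35 FPKM in WT. All knockout libraries lay far above both WT libraries, which held 76 and 89 BMP2 reads, and both KO2 libraries lay above both KO1 libraries. The knockout mean was 82.9-fold the WT mean, 79.0-fold in KO1 and 86.7-fold in KO2, and the difference in log2(FPKM + 1) was 5.50 ± 0.07 (standard error of the limma fit, as in every such value here). BMP4 (ENSG00000125378, chr14:53949736-53958761) stood at 0 and 0.0428 FPKM in KO1 and at 0 in both KO2 libraries, against 228 and 235 FPKM in WT. These values rest on 0 and 3 reads in KO1 and 0 and 0 reads in KO2, against 15141 and 13281 reads in WT. BMP4 was therefore close to undetected in both knockouts and was the most abundant of the 10 genes in WT. The KO1 level was 0.00916% of the WT level, with an exact 95% interval of 0.00189% to 0.0268% that covers counting error only, and the KO2 level was at least 4527-fold lower than WT with a floor of 3 reads per library.

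The summed level of the 10 BMP genes measured was 117 and 118 FPKM in KO1, 119.8 and 120.1 FPKM in KO2, and 244 and 253 FPKM in WT. BMP2 made up 77.3% and 79.1% of this sum in KO1, 83.8% and 84.2% in KO2, and 0.401% and 0.533% in WT. BMP4 made up 93.3% and 92.9% of it in WT. The leading BMP transcript was thus BMP2 in every knockout library and BMP4 in both WT libraries, at a lower summed level in the knockouts. BMP6, a BMP ligand best known from iron regulation in liver, followed BMP2 in the knockouts at 18.6% and 17.5% in KO1 and 11.4% and 11.3% in KO2, against 0.424% and 0.426% in WT.

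**Figure D2:**
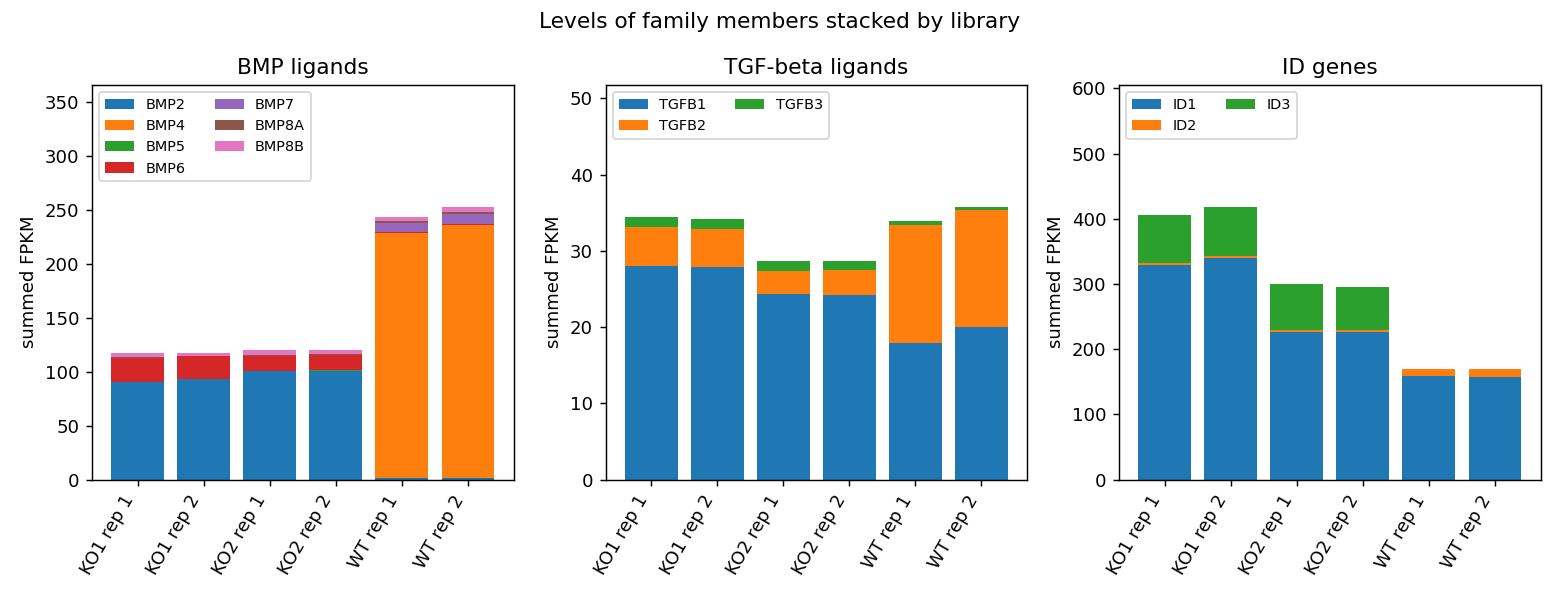
Bars stack the FPKM levels of the members of each family in every library, named on the x axis by group and replicate, with summed FPKM on the y axis. BMP2 fills 77.3% to 84.2% of the BMP bar in knockout libraries and BMP4 92.9% and 93.3% in WT libraries, TGFB2 is a smaller part of the TGF-beta bar in the knockouts, and ID3 is visible only in the knockout ID bars.

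TGFB2 (ENSG00000092969, chr1:218346235-218444619), one of the 3 TGF-beta ligands, stood at 5.13 and 4.94 FPKM in KO1, 3.07 and 3.23 FPKM in KO2, and 15.4 and 15.3 FPKM in WT. The 3 groups did not overlap, with KO2 lowest and WT highest. The knockout mean was 3.75-fold lower than the WT mean, a difference of -1.71 ± 0.04 in log2(FPKM + 1), and KO2 minus KO1 was -0.54. TGFB2 shares 1371 exon bases with the transcript TGFB2-OT1 on the same strand, which had 0 reads in all libraries. TGFB1, the ligand with the highest level of the 3, averaged 27.9 ± 0.0753 FPKM in KO1, 24.2 ± 0.0421 in KO2 and 19.0 ± 1.46 in WT, and it rose by 0.44 ± 0.05 log2 units (limma, Benjamini-Hochberg adjusted p = 4.02e-04). The sum of the 3 ligands was 34.4 and 34.1 FPKM in KO1, 28.6 and 28.7 FPKM in KO2, and 33.9 and 35.7 FPKM in WT. TGFB3, the ligand at the lowest level of the 3, averaged 1.26 FPKM in KO1, 1.24 in KO2 and 0.462 in WT and rose by 0.63 ± 0.08 log2 units (limma, adjusted p = 7.90e-04). TGFB2 was 14.9% and 14.5% of this sum in KO1, 10.7% and 11.3% in KO2, and 45.4% and 42.8% in WT, so TGFB1 formed a larger part of it in the knockouts than in WT.

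Of 30 further ligand genes of the superfamily, 12 passed the filter, 6 rose and 4 fell in the knockouts, and 2 were not called, with a median log2 difference of 0.32 against 0.02 over all genes tested. The share called, 83.3%, was near the 80.6% of all genes tested, of which 40.5% were higher and 40.1% lower. BMP6 averaged 21.2 ± 0.805 FPKM in KO1, 13.6 ± 0.0902 in KO2 and 1.05 ± 0.0313 in WT (SD, n = 2 each). It rose by 3.13 ± 0.04 log2 units (limma, Benjamini-Hochberg adjusted p = 2.37e-07) and was lower in KO2 than in KO1, at -0.60 ± 0.04 (adjusted p = 0.00133 in limma). BMP7, a ligand known from kidney and skeletal development, had 1 read in KO1 and 1 in KO2, against 9.26 ± 0.566 FPKM in WT, and it fell (limma, adjusted p = 9.76e-07). GDF15, a stress-induced member of the superfamily, fell 3.60-fold (limma, adjusted p = 3.36e-06). INHBB, the beta B subunit of activin and inhibin, separated the knockouts from each other. It averaged 0.634 ± 0.244 FPKM in KO2 and 4.71 ± 0.316 FPKM in KO1, with 0.0327 ± 0.0258 FPKM in WT, and KO2 minus KO1 was -1.81 ± 0.12 in log2 units (limma, adjusted p = 0.00127). The INHBB call of the knockout average against WT (limma, adjusted p = 7.30e-05) was lost with KO1 and KO2 taken as a single group (adjusted p = 0.0759).

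TGFBR2 (ENSG00000163513, chr3:30606502-30694142), the type II receptor that binds TGF-beta, stood at 15.8 and 15.5 FPKM in KO1, 11.9 and 11.7 FPKM in KO2, and 18.4 and 18.8 FPKM in WT. The order KO2, KO1, WT from low to high held without overlap, and the difference of the knockout average from WT was the smallest of the 10 genes on the log2 scale. The knockout mean was 1.35-fold lower than WT, 1.19-fold in KO1 and 1.57-fold in KO2, with a difference of -0.42 ± 0.03 in log2(FPKM + 1). Its partner, the type I receptor TGFBR1, averaged 5.71 ± 0.176 FPKM in KO2 and 13.0 ± 0.138 FPKM in KO1, with 9.76 ± 0.127 FPKM in WT between them. TGFBR1 rose by 0.38 log2 units in KO1 (limma, adjusted p = 3.40e-04), fell by 0.68 in KO2 (adjusted p = 3.47e-05) and was lower in KO2 than in KO1, at -1.06 ± 0.04 (adjusted p = 3.50e-04). The knockout average itself, at -0.15 ± 0.03 (limma, adjusted p = 0.00729), was no longer called in voom (adjusted p = 0.504) or with the knockouts as a single group (adjusted p = 0.742).

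Of 17 other receptor and co-receptor genes, 10 passed the filter, 3 rose and 6 fell, and 1 was not called, or 90% called against 80.6% of all genes tested (40.5% higher, 40.1% lower), with a median of -0.32. BMPR2, the type II receptor of BMPs, averaged 2.76 FPKM in KO1, 2.46 in KO2 and 9.13 in WT, and it fell by 1.49 ± 0.05 log2 units (limma, adjusted p = 5.42e-06). BMPR1A, a type I receptor of BMP2 and BMP4, fell by 0.48 log2 units (limma, adjusted p = 7.57e-04). ACVR1B, the type I receptor of activins, fell by 0.81 log2 units (limma, adjusted p = 3.25e-05). TGFBR3, also called betaglycan, which presents TGF-beta 2 to TGFBR2, averaged 6.83 FPKM in KO1, 6.31 in KO2 and 0.344 in WT and rose 19.1-fold (limma, adjusted p = 1.40e-06). ENG, the co-receptor endoglin known from endothelium, rose 4.82-fold (limma, adjusted p = 4.82e-06). The endothelial marker CDH5 was also higher in the knockouts, with the read numbers given above, while KDR and TEK had 0 reads there, and their part in the ENG value was not tested.

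**Figure D3:**
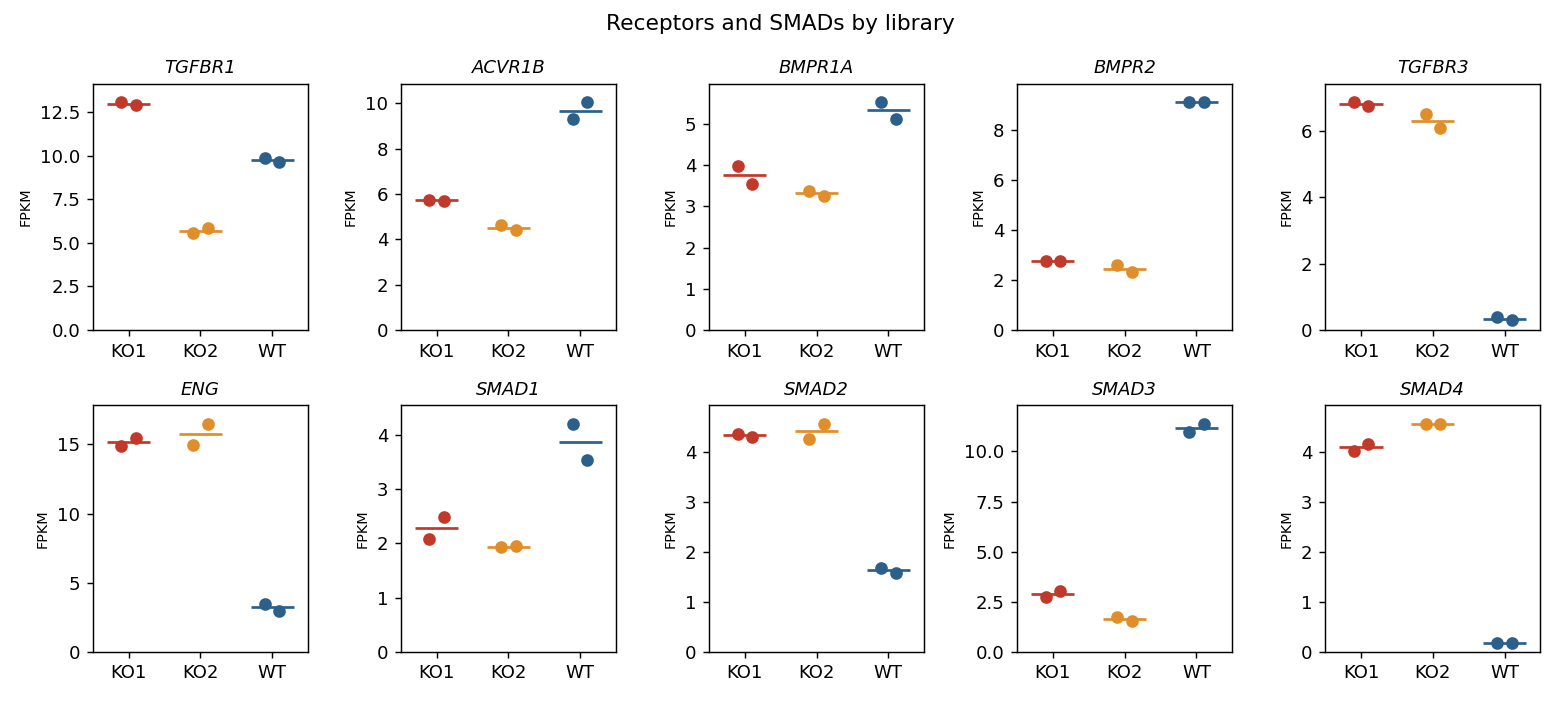
Each point is the FPKM of one library and each bar the mean of KO1, KO2 or WT, for 6 receptors and co-receptors and 4 SMADs outside the 10 genes, with FPKM from 0 on the y axis. TGFBR1 averaged 13.0 FPKM in KO1 and 5.71 FPKM in KO2 on either side of 9.76 FPKM in WT, and SMAD4 averaged 4.10 and 4.57 FPKM in the knockouts and 0.179 FPKM in WT.

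BAMBI (ENSG00000095739, chr10:28677342-28682939), a membrane pseudoreceptor that resembles type I receptors without a kinase domain and blocks signalling, stood at 7.22 and 7.02 FPKM in KO1, 8.22 and 6.96 FPKM in KO2, and 146 and 153 FPKM in WT. The knockouts overlapped each other and both lay far below WT. The knockout mean was 20.3-fold lower than the WT mean, a difference of -4.17 ± 0.06 in log2(FPKM + 1). SMAD6 (ENSG00000137834, chr15:66702228-66782848), the inhibitory SMAD that acts mainly on BMP signals, stood at 5.49 and 6.10 FPKM in KO1, 4.27 and 3.79 FPKM in KO2, and 0.822 and 0.757 FPKM in WT. All knockout libraries lay above WT and KO1 above KO2, the knockout mean was 6.22-fold the WT mean, and the log2 difference was 1.71 ± 0.07. SMAD7 (ENSG00000101665, chr18:48919853-48952052), the inhibitory SMAD of both branches, stood at 11.7 and 11.6 FPKM in KO1, 8.01 and 7.52 FPKM in KO2, and 14.2 and 15.7 FPKM in WT. It was lower in the knockouts, with log2 differences of -0.33 in KO1 and -0.86 in KO2, and KO2 lay below KO1 without overlap. The 2 inhibitory SMADs summed to 17.2 and 17.7 FPKM in KO1, 12.3 and 11.3 FPKM in KO2, and 15.0 and 16.5 FPKM in WT, with SMAD6 at 31.9% to 34.8% of the sum in knockout libraries and 5.47% and 4.6% in WT.

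ID1, SMAD6 and BAMBI are shown by sequence as response genes of both directions, with ID1 and SMAD6 higher and BAMBI lower in the knockouts. ID3 and ID2 differed more from WT than ID1 did and are not printed. SMAD complexes are known to bind the GC-rich letters GGCGCC, the palindrome GTCTAGAC and the box CAGAC. The stretches are from RefSeq (GRCh38.p14, plus strand) and begin 250 bases before the RefSeq start, from which all distances below are counted. BAMBI was cut to its first 101 bases, the last 30 of which lie in a GENCODE exon. The GENCODE start of BAMBI, 28677342, lies before its RefSeq start, so much of its window of 250 bases is past the GENCODE start. Capitals mark each match to GGCGCC, GTCTAGAC or CAGAC on either strand.
ID1 chr20:31605039-31605288: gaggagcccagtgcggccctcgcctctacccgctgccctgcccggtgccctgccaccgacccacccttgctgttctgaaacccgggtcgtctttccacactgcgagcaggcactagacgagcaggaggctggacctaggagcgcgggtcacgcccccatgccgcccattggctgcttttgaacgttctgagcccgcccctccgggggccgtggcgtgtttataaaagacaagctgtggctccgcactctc
SMAD6 chr15:66701986-66702235: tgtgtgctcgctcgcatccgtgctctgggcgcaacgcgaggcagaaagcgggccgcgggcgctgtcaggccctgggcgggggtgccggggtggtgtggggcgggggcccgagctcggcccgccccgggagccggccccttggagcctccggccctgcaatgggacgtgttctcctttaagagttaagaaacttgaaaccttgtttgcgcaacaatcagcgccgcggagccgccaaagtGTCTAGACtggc
BAMBI chr10:28677271-28677371: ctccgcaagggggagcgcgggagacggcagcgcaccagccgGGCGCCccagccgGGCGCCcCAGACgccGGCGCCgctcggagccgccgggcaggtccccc
BAMBI held 3 GGCGCC, at 209, 196 and 181 bases before the start, and CAGAC at 189 bases. A further CAGAC at 140 bases lies past the stretch shown. Among 35116 RefSeq windows of 250 bases, 16.4% held GGCGCC and 0.527% held at least 3. The BAMBI window was 81.2% G and C, against a median of 58% over all windows, and the share among windows of like content was not computed. SMAD6 held GTCTAGAC 12 bases before its start, and 0.182% of all windows held GTCTAGAC. The last 8 bases of the SMAD6 stretch lie in a GENCODE exon, so part of this match is past the GENCODE start. ID1 held none of the 3 motifs, and CAGAC was in 38% of all windows. Of the 10 genes, 9 were in the table, with 14 windows, and BMP2 was not matched. Outside the genes printed, 1 of 3 BMP4 windows held GGCGCC, and CAGAC was in windows of BMP4, ID3, SMAD7 and TGFB2. A match is a description of letters and not a binding site.

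ID1, ID2 and ID3 are dominant-negative helix-loop-helix factors that bind E proteins and keep them from DNA, and the 3 genes differed in direction and size. ID1 (ENSG00000125968, chr20:31605283-31606515) stood at 329 and 339.8 FPKM in KO1, 226 and 226 FPKM in KO2, and 159 and 158 FPKM in WT. The groups did not overlap, with KO1 highest, and the means were 2.11-fold the WT mean in KO1 and 1.43-fold in KO2. The difference of the knockout average from WT was 0.79 ± 0.02 in log2(FPKM + 1), and KO2 minus KO1 was -0.56. ID3 (ENSG00000117318, chr1:23557918-23559794) stood at 74.5 and 75.3 FPKM in KO1, 70.1 and 65.5 FPKM in KO2, and 0.490 and 0.666 FPKM in WT. ID3 was low in WT, with 41 reads over both libraries, and high in every knockout library. The knockout mean was 123-fold the WT mean, with a log2 difference of 5.52 ± 0.06. ID2 (ENSG00000115738, chr2:8678845-8684453) was the exception, at 2.02 and 2.33 FPKM in KO1, 3.03 and 3.15 FPKM in KO2, and 10.9 and 11.6 FPKM in WT. The knockout mean was 4.27-fold lower than WT, a log2 difference of -1.76 ± 0.06, and KO2 was 0.37 log2 units above KO1. ID2 shares 38 exon bases with the antisense gene ID2-AS1, which had 3 to 16 reads per library, and the counting may or may not have used strand, which no source read here states.

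ID4, the remaining family member, had 0 reads in all 6 libraries. The summed ID level was 405.9 and 417 FPKM in KO1, 299 and 295 FPKM in KO2, and 170.1 and 170.02 FPKM in WT. ID1 made up 81.1% and 81.4% of it in KO1, 75.6% and 76.7% in KO2, and 93.3% and 92.8% in WT. ID3 made up 18.4% and 18.0% in KO1 and 23.4% and 22.2% in KO2, while ID2 made up 6.42% and 6.80% in WT. The higher summed ID level in the knockouts was thus made up of more ID1 and of ID3, which was low in WT. TCF12, an E protein that IDs bind, rose by 0.65 log2 units (limma, adjusted p = 6.79e-05), and of 3 E protein genes 2 passed the filter, with 1 not called.

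In each group the 10 genes can be ordered by level, on the FPKM scale that corrects for length. In KO1 the order was ID1, BMP2, ID3, TGFBR2, SMAD7, BAMBI, SMAD6, TGFB2, ID2 and BMP4. KO2 had the same order, but SMAD7 at 7.77 ± 0.342 FPKM and BAMBI at 7.59 ± 0.894 FPKM overlapped, as did TGFB2 at 3.15 ± 0.114 FPKM and ID2 at 3.09 ± 0.0850 FPKM. In WT the order was BMP4, ID1, BAMBI, TGFBR2, TGFB2, SMAD7, ID2, BMP2, SMAD6 and ID3, where TGFB2 at 15.4 ± 0.0826 FPKM and SMAD7 at 15.0 ± 1.06 FPKM overlapped (SD, n = 2 each). BMP4 thus stood first in WT and last in both knockouts, and ID3 stood last in WT and at rank 3 in both knockouts.

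Of the 5 tested SMAD genes that carry the signal, 2 rose, 2 fell and 1 was not called, or 80% called against 80.6% of all genes tested. SMAD4, the partner shared by both branches, averaged 4.10 ± 0.0939 FPKM in KO1, 4.57 ± 0.00831 in KO2 and 0.179 ± 0.00113 in WT, from 2476, 2287 and 94 reads. It rose by 2.18 ± 0.05 log2 units, 24.2-fold in FPKM (limma, adjusted p = 1.45e-06). SMAD3, which acts for TGF-beta, fell 4.97-fold to 2.88 FPKM in KO1 and 1.62 FPKM in KO2, against 11.2 FPKM in WT (limma, adjusted p = 4.30e-06), and SMAD2, its close relative, rose 2.69-fold (adjusted p = 1.86e-05). Of the BMP-branch SMADs, SMAD1 fell by 0.65 log2 units (limma, adjusted p = 0.00109) and SMAD5 was not called, at a difference of 0.04 (adjusted p = 0.415).

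**Figure D4:**
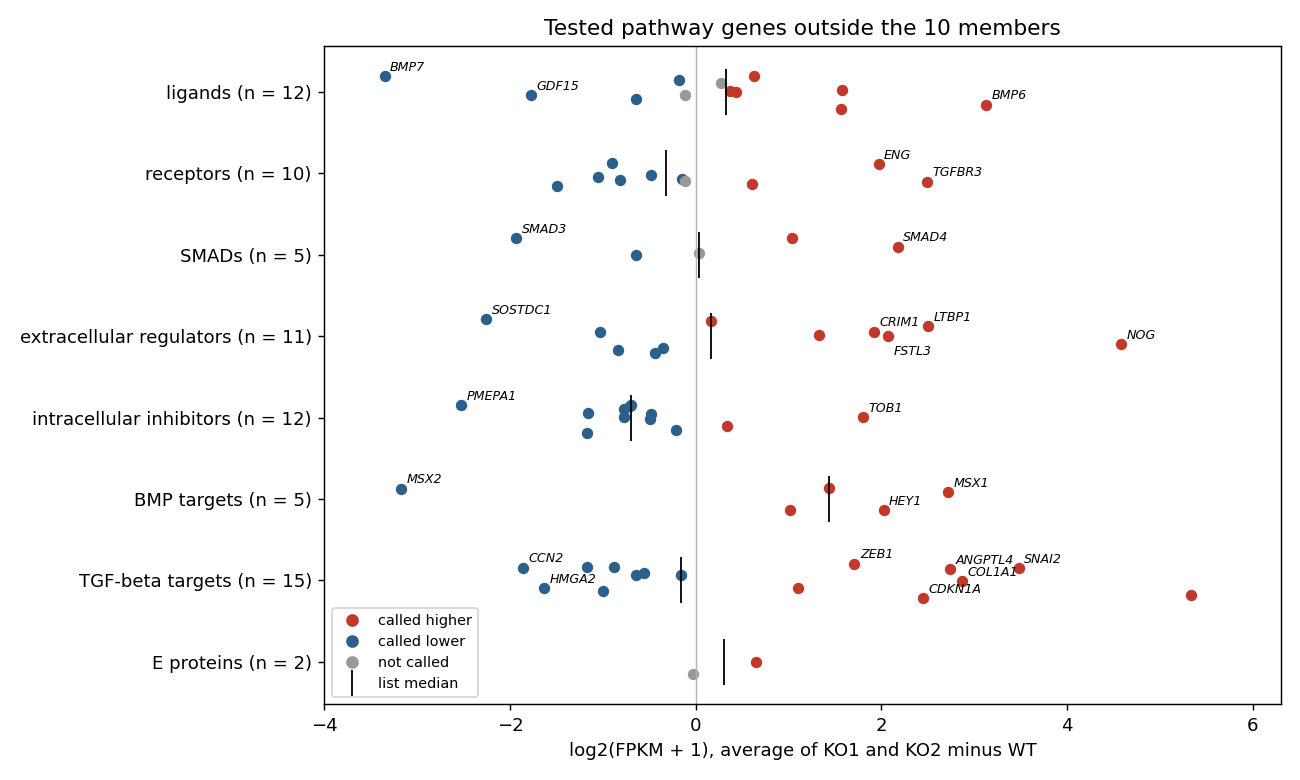
Each point is a tested pathway gene outside the 10 members, placed by the difference of the knockout average and WT in log2(FPKM + 1) on the x axis and by list on the y axis, red where called higher, blue where called lower and grey where not called, with a black line at the list median. Intracellular inhibitors had the lowest median at -0.70 and BMP targets the highest at 1.43.

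Across 115 listed pathway genes outside the 10, 72 passed the filter, 31 rose and 36 fell in the knockout average, 93.1% called against 80.6% of all genes tested. Against WT, KO1 gave 30 higher and 34 lower, and KO2 gave 31 higher and 33 lower (88.9% called in each, against 77.8% and 78.9% of all genes). Over all genes, 39.3% were higher and 38.6% lower in KO1, and 39.1% higher and 39.8% lower in KO2. With WT libraries shared, these comparisons are not independent. Tested against a fold of 1.5 (limma treat), the calls of TGFB1, TGFB3, TGFBR1, BMPR1A, SMAD1 and TCF12 in the knockout average, those of TGFBR1 in KO1 (adjusted p = 1) and in KO2 (adjusted p = 0.0580), and those of BMP6, JUNB and NOG between KO2 and KO1, were lost. Among the extracellular regulators, 6 rose and 5 fell of 11 tested, where 40.5% of all genes tested were higher and 40.1% lower. NOG, encoding noggin, a secreted antagonist that binds BMP2 and BMP4, averaged 23.1 ± 0.861 FPKM in KO1, 34.1 ± 1.56 in KO2 and 0.215 ± 0.0620 in WT and rose by 4.58 ± 0.05 log2 units (limma, adjusted p = 2.15e-07). NOG was also higher in KO2 than in KO1, by 0.55 log2 units (limma, adjusted p = 0.00359). CRIM1, a membrane protein that binds BMPs, rose 4.09-fold (limma, adjusted p = 5.25e-07), FSTL3, a secreted activin antagonist, 4.41-fold (adjusted p = 7.81e-07) and LTBP1, which tethers latent TGF-beta to the matrix, 12.4-fold (adjusted p = 3.92e-06). GREM1, another BMP antagonist, had 4 reads in KO1, 6 in KO2 and 2 in WT and was below the filter.

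Among 12 intracellular inhibitors all were tested, 2 rose and 10 fell, with a median of -0.70, where 40.5% of all genes tested were higher, 40.1% lower and the median was 0.02. PMEPA1, which sequesters SMAD2 and SMAD3, fell 6.12-fold (limma, adjusted p = 1.13e-06), as did the SMAD ubiquitin ligase gene SMURF2, 2.54-fold (adjusted p = 7.98e-06), and the corepressor gene SKI, 2.36-fold (adjusted p = 9.98e-06). TOB1, an antiproliferative protein that interacts with SMADs, rose 3.57-fold, to 104 FPKM in KO1 and 126.7 FPKM in KO2, against 32.3 FPKM in WT (limma, adjusted p = 4.12e-07). Between KO2 and KO1, 2 of these genes were higher and 2 lower, or 33.3% called against 26.2% of all genes tested.

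Of 9 listed BMP targets, 5 passed the filter, 4 rose and 1 fell, where 40.5% of all genes tested were higher and 40.1% lower. MSX1, a homeobox gene induced by BMPs, averaged 4.86 FPKM in KO1, 7.92 in KO2 and 0.1 in WT and rose by 2.72 log2 units (limma, adjusted p = 3.71e-06). MSX2, its paralogue, fell 16.9-fold, to 0.981 FPKM in KO1 and 1.02 FPKM in KO2, against 16.9 FPKM in WT (limma, adjusted p = 1.67e-05). HEY1, a basic helix-loop-helix repressor, rose 14.6-fold (limma, adjusted p = 2.95e-06), and DLX3, a homeobox gene, 21.2-fold (adjusted p = 2.68e-05). Both WT libraries together held 40 reads of HEY1, 11 of DLX3 and 9 of MSX1, so the sizes of these rises rest on few WT reads.

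Of 16 listed TGF-beta targets 15 were tested, 7 rose and 8 fell, with a median of -0.15, where 40.5% of all genes tested were higher and 40.1% lower. SNAI2, a transcription factor of epithelial-mesenchymal transition, stood at 9.90 FPKM in KO1 and 10.4 FPKM in KO2, at least 228-fold higher than WT, which had 0 reads (limma, adjusted p = 3.03e-07). COL1A1, a chain of type I collagen, rose 15.9-fold (limma, adjusted p = 5.69e-07) and ANGPTL4, a secreted lipase inhibitor, 15.4-fold (adjusted p = 5.70e-07), next to the fibroblast marker levels given above, whose part in it was not tested. JUNB, a transcription factor of the AP-1 family, fell to 93.2 FPKM in KO2 and 157 FPKM in KO1, against 244 FPKM in WT (limma, adjusted p = 1.52e-05), and was lower in KO2 than in KO1, at -0.75 ± 0.05 log2 units (adjusted p = 0.00133).

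Between the knockouts, 28 of the 72 tested pathway genes were called, 11 higher and 17 lower in KO2, or 38.9% against 26.2% of all genes tested (limma), of which 11.2% were higher and 15% lower. Leaving out either KO1 library lowered this count to 16. The intracellular inhibitors gave 2 higher and 2 lower, the BMP targets 3 higher, the ligands 4 lower, and the TGF-beta targets 3 higher and 5 lower. The extracellular regulators gave 3 higher and 3 lower, the receptors 2 lower, the SMADs 1 lower, and the E proteins 0 calls.

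Tested protein-coding genes within 500 kb of the 10 were also read, to place the members beside their surroundings. Of all genes tested, 40.5% were called higher and 40.1% lower. SMAD6, higher in the knockouts by 1.71, had 9 tested neighbours, 7 called lower and 2 not called, with a median of -0.67. The lowest of them was SMAD3, at -1.94. The 2 neighbours of SMAD7 were called higher, with a median of 1.09, and SMAD7 was lower. The 2 neighbours of BAMBI and the 2 of BMP4 were called lower, with medians of -1.72 and -1.27, where the genes themselves differed by -4.17 and -7.84. ID3 had 17 tested neighbours, 9 higher, 3 lower and 5 not called, with a median of 0.25, and BMP2 and TGFBR2 had none. Of the 5 neighbours of ID1, 2 were higher, 2 lower and 1 not called. Of the 2 of ID2, 1 was lower and 1 not called, and the 1 of TGFB2 was lower.

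The genes most like BMP2, BMP4 and ID3 were taken as those with the smallest Euclidean distance in log2(FPKM + 1) over the 6 libraries, among 11882 protein-coding genes tested. For BMP2 they included CDKN1C at 0.969 and ID3 at 1.10 log2 units. For BMP4 they were ALDH1A1 at 0.283, KRT23 at 0.388 and KLK6 at 0.794, and for ID3 CDKN1C at 0.458, C11orf86 at 0.547 and SMOC1 at 0.926. CDKN1C stood at 63.8 and 66.5 FPKM in KO1, 76.3 and 75.2 FPKM in KO2, and 0.691 and 0.923 FPKM in WT. ALDH1A1 was at or below 0.0451 FPKM in the knockouts and at 266 and 261 FPKM in WT. The likeness is that of levels in 6 libraries that fall into 3 groups.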

How the data were processed

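RNA was measured by sequencing in 2 libraries each of KO1, KO2 and WT, assigned by their labels. The members and gene lists were chosen with earlier results of these data known. The 6 deposited files hold FPKM values for 58735 Ensembl gene IDs, computed by the authors. HISAT2 2.0.5, featureCounts 1.5.0-p3 and hg38 are named in the submitters' processing notes. What each tool did, whether counting used strand and which annotation served are not stated there. Every ID was in GENCODE 29, which gave exon lengths and GRCh38 coordinates.

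FPKM times exon length gave whole multiples of a step for 100% of values in each library, within 0.1 of a step, and this gave back the numbers of reads. The FPKM denominator was 0.945 and 0.936 times the recovered total in WT and 1.03 to 1.05 times in the knockouts, so it differed by group. A single read in 1 kb equals 0.0429 to 0.0544 FPKM. Replicates differed beyond counting error, with a chi-square per degree of freedom of 1.80 in KO1, 2.40 in KO2 and 2.46 in WT over genes with at least 20 reads.

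Genes at 1 FPKM or more in at least 2 libraries (16046) were fitted as group means of log2(FPKM + 1) in limma 3.58.1 (R 4.3.3) with a mean-variance trend, all 6 libraries sharing the spread. P-values were Benjamini-Hochberg adjusted over all genes tested, with calls below 0.05. Log2 differences in the text are on this scale, which understates low genes; folds are ratios of mean FPKM. A fold against 0 reads uses a floor of 3 reads per library, and floors and intervals cover counting error only. The fit was tested on simulated data.

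The text names the members, 10 fixed pathway genes, label checks, up to 4 genes with the smallest adjusted p per pathway list, 4 for KO2 against KO1, and the 3 genes nearest to BMP2, BMP4 and ID3. ERBB2, SMAD5 and single markers were named after their values were seen, and some genes that the rule picks are not reported here. Alternatives were a pseudocount of 0.1, no filter, quantile and median-of-ratios scaling, voom on recovered reads, a replicate block, KO1 and KO2 as a single group, a fold threshold of 1.5 (treat) and each library left out.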

Additional observations from a re-analysis of the deposited data

Results flagged for a closer look

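TGFBR1, the type I receptor of TGF-beta, differed from WT in opposite directions in the knockouts, -0.68 in KO2 and 0.38 in KO1 on the log2(FPKM + 1) scale, both called in limma and both lost when tested against a fold of 1.5 (limma treat, adjusted p = 0.0580 in KO2 and 1 in KO1). The test of the difference itself, KO2 minus KO1, gave -1.06 ± 0.04 (limma, Benjamini-Hochberg adjusted p = 3.50e-04), with both KO2 libraries below and both KO1 libraries above both WT libraries, and it was still called against a fold of 1.5. The labels do not say how KO1 and KO2 were derived, so an effect of the knockout and one of the derivation cannot be told apart.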

How the results depend on the processing

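No log2 difference of the 10 genes against WT changed sign under any alternative run. Their ranges for the knockout average, without the pseudocount of 0.1, were 5.37 to 6.55 for BMP2, -14.02 to -7.68 for BMP4, 5.44 to 7.09 for ID3, 1.58 to 2.75 for SMAD6, 0.78 to 0.97 for ID1, -1.96 to -1.73 for ID2, -0.67 to -0.50 for SMAD7, -4.23 to -4.0 for BAMBI, -1.80 to -1.65 for TGFB2 and -0.44 to -0.30 for TGFBR2. BMP4 has no value with a WT library left out, since it passes the filter only through both. Voom on recovered reads, with library size as the only scaling, moved the median of all genes by 0.148 in the knockout average, 0.137 in KO1, 0.165 in KO2 and 0.0235 in KO2 minus KO1. The deposited FPKM values carry the split of denominators between WT and knockouts given above, and voom on reads does not.

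Against a fold of 1.5 (treat), the pathway genes called lower were 23 in the knockout average, against 36, and 19 in KO1, against 34. In KO2 minus KO1 that test called 2 pathway genes, INHBB and TGFBR1, 0 of them higher and 2 lower, against 28 called in limma with no fold threshold, 11 higher and 17 lower. Over all genes it called 6269 in the knockout average, 5973 in KO1, 6195 in KO2 and 129 in KO2 minus KO1, against 12940, 12488, 12660 and 4203. Voom called 18 pathway genes higher in KO2 than in KO1, against 11. The cause of these shifts was not tested, apart from the threshold that treat sets.

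With a library left out, pathway calls in KO2 minus KO1 ranged from 16 to 29, higher ones from 8 to 13 and lower ones from 8 to 16. All genes called there ranged from 1836 to 3897, with 1836 without KO1 replicate 1, 1932 without KO1 replicate 2, 2757 without KO2 replicate 1 and 2547 without KO2 replicate 2. Against WT, pathway calls ranged from 60 to 67 in the knockout average, 58 to 63 in KO1 and 61 to 65 in KO2.

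Replicate numbers did not pair the libraries: deviations of replicate 1 correlated at -0.0383 between KO1 and KO2, 0.0191 between KO1 and WT and -0.00406 between KO2 and WT. A replicate block gave 68 pathway calls for the knockout average, 63 for KO1, 65 for KO2 and 26 for KO2 minus KO1. Of 1786 values of named pathway genes, 64 lost and 2 gained a call under an alternative. Small differences that were not called, such as that of MSX2 between KO2 and KO1, can change sign between runs. Without the filter, 76 of 103 pathway genes with any read were called in the knockout average, against 67 of 72 with it. Over all genes, 16590 of 36164 were called without the filter, against 12940 of 16046 with it. A pathway gene with 0 reads in every library gave no value.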

Other observations

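Some pathway genes below the filter were also unevenly spread over the groups, and were chosen here after their values were seen. BMP5, a BMP ligand, had 28 and 41 reads in KO1, 55 and 68 in KO2, and 0 in both WT libraries. ATOH8, a basic helix-loop-helix factor, had 53 and 53 reads in KO1, 109 and 69 in KO2, and 2 and 0 in WT. ACVR1C, a type I receptor also called ALK7, had 0 reads in all 4 knockout libraries and 103 and 94 in WT. BMPR1B, a type I receptor of BMPs, had 0 and 1 reads in KO1, 2 and 6 in KO2, and 124 and 96 in WT. SMAD9, a SMAD of the BMP branch, had 27 and 15 reads in KO1, 12 and 17 in KO2, and 70 and 77 in WT. In the limma fit without a filter the knockout average was higher for BMP5 (0.66 ± 0.09 in log2(FPKM + 1), Benjamini-Hochberg adjusted p = 0.00318) and ATOH8 (0.63 ± 0.09, adjusted p = 0.00430). It was lower for ACVR1C (-0.62 ± 0.03, adjusted p = 1.29e-04), BMPR1B (-0.88 ± 0.05, adjusted p = 1.52e-04) and SMAD9 (-0.52 ± 0.07, adjusted p = 0.00396).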
